A study of Drosophila melanogaster with 2 samples.

Results

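The genes br, E23, Eip78C, Eip93F, Eip63E and Eip71CD are 6 ecdysone-induced genes of Drosophila melanogaster, taken from 13968 protein-coding genes in the annotation. They were chosen by name as a set of ecdysone-induced genes of the onset of metamorphosis. Each was examined from 5 kb upstream to 5 kb downstream of its annotated body. Binding of Dorsal (dl), a transcription factor related to NF-kB, was mapped in whole larvae of the third instar, at the wandering stage, by chromatin immunoprecipitation and sequencing (ChIP-seq). The single group had 2 biological replicates, which the labels number 1 and 3, and there was no second condition. All animals came from 1 transgenic strain, dl-small-GFP, whose transgene (dl-eGFP) carries GFP at the C-terminus of the dl isoform RC. Males and females were pooled, the age is given as unknown, and neither the driver of the transgene nor the state of the untagged dl gene is given in the sources used here. Chromatin was recovered with an antibody against GFP, although 1 label field names dl, and the fragments were 200 to 275 bp in replicate 1 and 175 to 275 bp in replicate 3. The control that the labels point to was not used here.

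The steroid hormone ecdysone binds a heterodimer of the nuclear receptors EcR and usp. In the classical cascade of the larval salivary gland, the loaded receptor switches on a small set of early genes, and the products of these act on later genes while the animal stops feeding, wanders and pupariates. The br locus encodes BTB zinc-finger transcription factors of this early set, Eip78C a nuclear receptor, and Eip93F a DNA-binding protein needed for the death of larval tissues and for adult differentiation. E23 encodes an ATP-binding cassette transporter, Eip63E a cyclin-dependent kinase, and Eip71CD, which the annotation lists as MsrA, a methionine sulfoxide reductase. Because whole animals were used, binding in a few tissues cannot be told apart from weaker binding in many, and neither transcription nor ecdysone level was measured.

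The deposited dm6 lists held 2718 peaks that passed the irreproducible discovery rate (IDR) filter, called peaks here, of which 2690 lay on the chromosome arms. They also held 29999 candidate regions called on the pooled alignments, and 29999 and 30000 candidates in the lists called on single replicates. Nothing in the sources used here links those 2 lists to replicate numbers, so they are named list A and list B, and the 2718 regions of highest signal in either are called its best regions. Signal is the score in the authors' lists, without normalisation between lists, so lists are compared by rank. Ranks count from 1 for the highest signal. Read depth is unknown, because the lists hold no read counts, and all intervals are exact Clopper-Pearson 95% intervals that cover the counting of regions only. With 1 group and 2 lists no test between conditions was possible, and values are set beside the same quantity over all genes or all candidates.

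Each of the 6 genes had at least 1 peak in its window, where 23.1% of protein-coding genes did. Each also had a peak within 500 bp of an annotated start site, where 8.81% of protein-coding genes did. In list A alone 5 of the 6 had a best region at a start site, beside 9.27% of protein-coding genes, and in list B alone 5 of the 6 did, beside 8.66%. The exception was Eip93F in list A and Eip63E in list B. In list A br counted only through a region at the start site of transcript br-RI, whose pooled candidate did not pass. The start site peak of br, near br-RC, had rank 4309 in list A, outside its best regions. Start site peaks that were themselves among the best regions of both lists were found for E23, Eip78C and Eip71CD only. The windows held 163 pooled candidates, and 19 of them were peaks, which is 11.7% (7.17 to 17.6%) beside 8.98% of all pooled candidates on the arms. The 19 peaks comprised 7 at start sites, 10 in introns and 2 between genes.

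A longer window can hold more peaks, so each gene was set beside the protein-coding genes whose windows, 5 kb flanks included, were 0.8 to 1.25 times as long as its own. Among those, the share with a peak at a start site was 41.1% for br, 40.8% for Eip63E, 36.8% for Eip93F, 35.6% for Eip78C, 29.6% for E23 and 3.55% for Eip71CD. For 5 genes these shares were above the 8.81% of all genes, and for the short gene Eip71CD the share was below it. In number of peaks, 5.36% of the 112 genes with windows like that of br had 7 or more, as br did. Of the 10578 genes with windows like that of Eip71CD, 0.510% had 4 or more, as it did. The 3 peaks of Eip78C were matched or passed by 17.3% of its comparison genes, and the 3 of Eip63E by 26.2%. A peak was present around 47.1% of the genes compared with E23 and 54.6% of those compared with Eip93F.

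**Figure D1:**
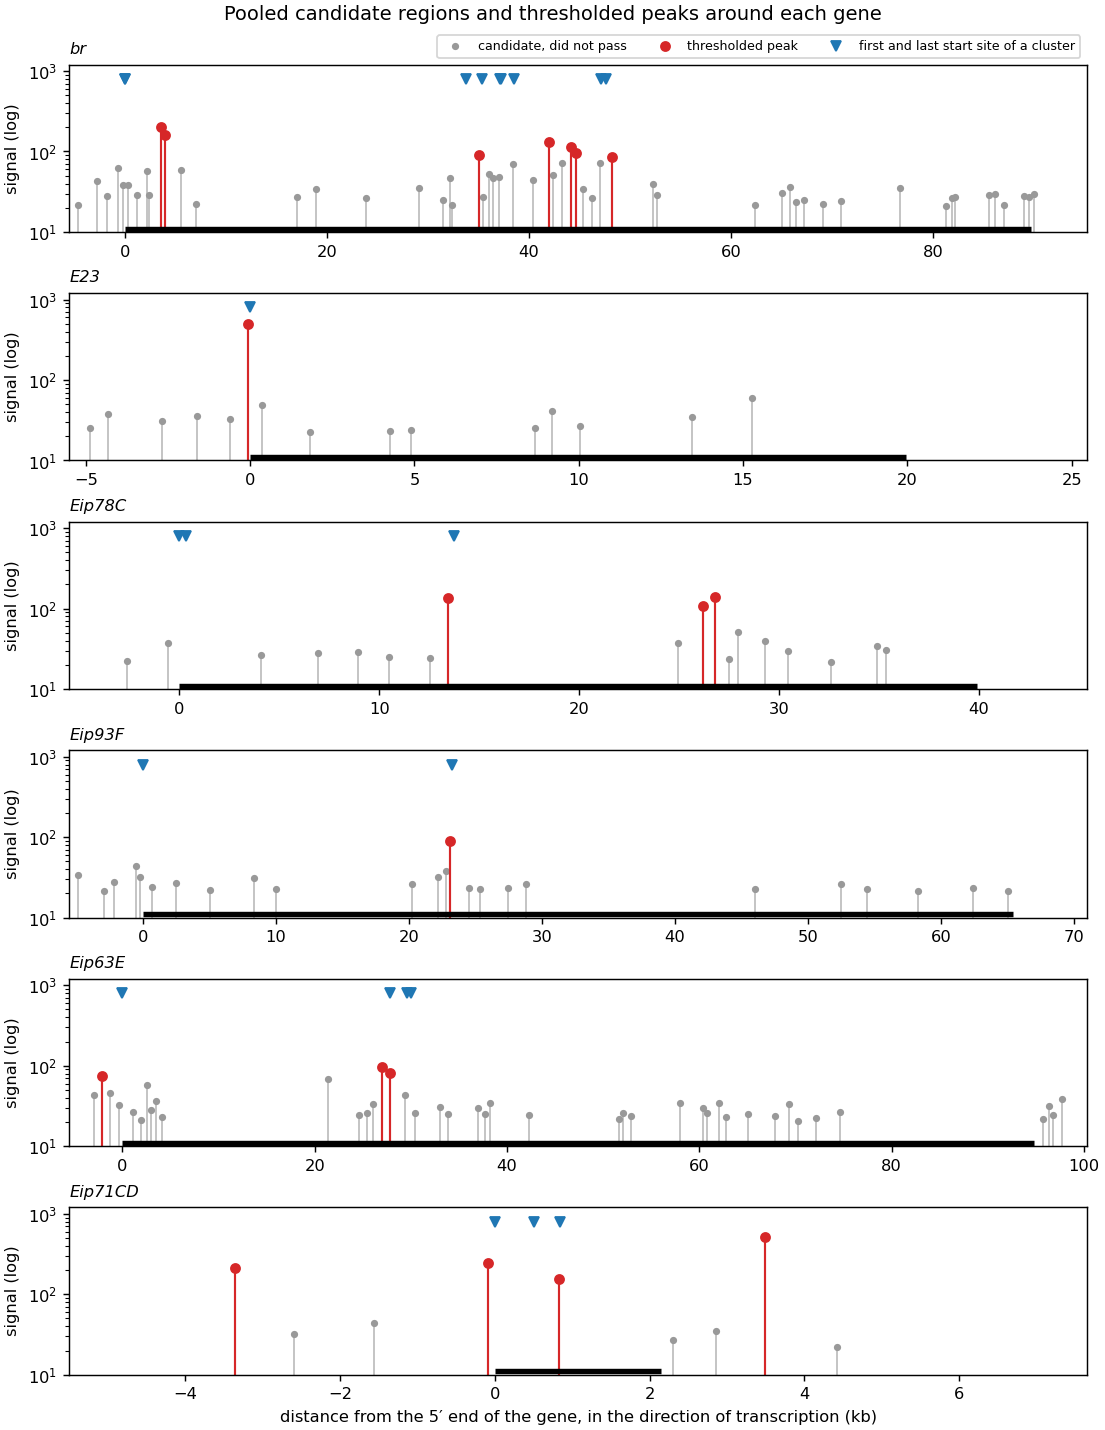
Signal of every pooled candidate (log axis, the authors' score) against distance from the 5′ end of each of the 6 genes in kb, with peaks in red, other candidates in grey, the gene body as a black bar and start sites as blue triangles. Of the 7 br peaks 2 lie near the 5′ end and 5 between 35.1 and 48.2 kb from it, E23 has a lone peak at its start site, and the 4 peaks of Eip71CD lie within 5 kb of a short gene.

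The br gene (FBgn0283451, plus strand, X, 1575132 to 1664869) spans 89.7 kb with 16 annotated transcripts and 9 start sites, which form 6 clusters when sites within 500 bp are joined. It lies within Mur2B, a gene annotated on the opposite strand from 1523554 to 1668788, so a peak here lies in both genes. Of 55 pooled candidates in the window 7 were peaks, 12.7% (5.27 to 24.5%), and 6 of these 7 were in introns. The highest was an intron peak with its summit at 1578685, 3536 bp from the nearest start site, with signal 203.8 and rank 580. It had signal 124.1 in list A (rank 568) and 70.8 in list B (rank 991). A second peak lay 439 bp further on, at 1579124, with signal 161.2, and it was among the best regions of list A (82.4, rank 1113) and of list B (70.6, rank 998). Both summits fell in intron 1 of the 2 longest-reaching transcripts, br-RN and br-RO, whose own start site held no peak.

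The only br peak at a start site had its summit at 1610220, 292 bp from that of br-RC. Its signal was 90.6 (rank 2000), with 38.6 in list A (rank 4309, outside the best regions) and 41.3 in list B (rank 2280). The start sites of the other transcripts held candidates that did not pass. At the cluster that starts 9 of the 16 transcripts, br-RA among them, the highest pooled signal was 47.6 (rank 5488). At br-RI it was 68.9 (rank 2966), and at br-RM and br-RS 72.4 (rank 2765), the highest value in any window that did not pass. At br-RN and br-RO it was 38.4 (rank 8290), and no pooled candidate lay within 500 bp of br-RH. The threshold on the arms fell between 73.2 and 73.3, so the candidate of br-RM and br-RS was just outside it, and the lowest peak in the 6 windows, at 74.9, just inside.

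Near the start site of br-RI, at 1613657, each single list had a best region, and the regions overlapped only in part. That of list A ran from 1613472 to 1613711, over the start site, with signal 53.6 (rank 2273). That of list B ran from 1613311 to 1613530, ending before the start site, with signal 47.3 (rank 1841). The summit of the pooled candidate, at 1613577, lay in the region of list A and outside that of list B. No candidate in the 6 windows that failed the threshold lay in best regions of both lists.

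The remaining 4 br peaks lay in introns further downstream. Those at 1617137, 1619268 and 1619833 were nearest to a start site of Mur2B, 1018, 1113 and 1678 bp away, and fell in an intron of 14 of the 16 br transcripts. Their signals were 132.2, 113.6 and 95.9, and all 3 were among the best regions of both lists. In list A their signals were 68.8, 69.3 and 50.6, at ranks 1528, 1503 and 2517. In list B they were 82.2, 62.1 and 41.2, at ranks 783, 1220 and 2287. The last, at 1623374, lay in an intron of all 16 transcripts, 642 bp from a br start site, with signal 86.6. It was the only one of the 19 peaks in the best regions of neither list, with 35.4 in list A (rank 5253) and 36.9 in list B (rank 2734). Its summit sat in an unbroken GA repeat of 26 bp.

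The sequences of 60 bp to either side of a summit are shown for the br-RC peak and for 3 intron peaks, to set the GA repeat at 1623374 beside peaks of higher signal. Capitals mark GAGAG and its complement CTCTC, the simple repeat that GAGA factor recognises in flies. These and the sequences that follow are from the release 6 reference assembly (dm6).
br, summit upstream of br-RC, chrX:1610160-1610280, plus strand: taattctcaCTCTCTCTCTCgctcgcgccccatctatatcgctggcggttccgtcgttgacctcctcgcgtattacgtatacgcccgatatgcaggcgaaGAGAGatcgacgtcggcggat
br, intron peak of highest signal, chrX:1578625-1578745, plus strand: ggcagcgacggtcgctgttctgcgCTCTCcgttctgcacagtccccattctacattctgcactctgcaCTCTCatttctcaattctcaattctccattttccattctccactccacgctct
br, intron peak 439 bp further on, chrX:1579064-1579184, plus strand: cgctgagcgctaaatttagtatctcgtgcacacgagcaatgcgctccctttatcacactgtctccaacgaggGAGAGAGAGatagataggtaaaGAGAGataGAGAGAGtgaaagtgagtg
br, intron peak with the GA repeat, chrX:1623314-1623434, plus strand: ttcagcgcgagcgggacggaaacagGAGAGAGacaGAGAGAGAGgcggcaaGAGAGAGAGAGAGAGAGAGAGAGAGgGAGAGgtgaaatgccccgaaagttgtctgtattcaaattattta

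GAGAGAG occurred 13 times, counting overlaps, within 100 bp of the summit in the GA repeat, where the ranks in the lists were 5253 and 2734, and did not occur around the summit of highest signal. Between these, the peak at 1579124 held 6 occurrences and the br-RC peak 3. The count of the repeat and the signal thus did not follow one order among these 4 peaks.

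Eip78C (FBgn0004865, plus strand, 3L, 21226609 to 21266503) encodes an orphan nuclear receptor and has 4 transcripts from 2 clusters of start sites. Of 18 pooled candidates, 3 were peaks, 16.7% (3.58 to 41.4%). The start site peak had its summit at 21240072, 275 bp from the start of Eip78C-RB, with signal 135.7 (rank 1134). It was among the best regions of both lists, with 75.2 in list A (rank 1306) and 77.9 in list B (rank 859). The 3 other transcripts start 13.7 kb further upstream, and there no list had a candidate within 500 bp, the nearest pooled candidate being 562 bp away. A pair of intron peaks 636 bp apart lay 12443 and 13079 bp downstream of the start of Eip78C-RB, in an intron of all 4 transcripts. Their nearest start site was that of CG43218, a gene inside Eip78C, 5230 and 4594 bp away. The peak at 21253426 had signal 138.4 (rank 1108) and was among the best of both lists, with 81.5 in list A (rank 1134) and 53.5 in list B (rank 1522). That at 21252790 had signal 108.8, with 88.5 in list A (rank 1000) and 21.2 in list B (rank 6850). The neighbour of lower pooled signal was thus the higher of the 2 in list A and lay outside the best regions of list B. Each list also had a best region in an Eip78C intron that overlapped no peak. That of list A, at 21262642, had signal 74.0 (rank 1335) and no pooled candidate over its summit. That of list B, at 21254575, had signal 54.6 (rank 1482) and a pooled signal of 51.3 (rank 4810).

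Eip93F (FBgn0264490, plus strand, 3R, 21949114 to 22014539) has 3 transcripts and 2 start sites 23.3 kb apart. Of 24 pooled candidates 1 was a peak, 4.17% (0.105 to 21.1%). Its summit at 21972217 lay 162 bp from the start of Eip93F-RA and Eip93F-RC, with signal 88.7 (rank 2054). The lists differed in its rank, with 21.5 in list A (rank 16463) and 59.8 in list B (rank 1296). At the upstream start site, that of Eip93F-RB, the highest pooled signal was 31.6 (rank 12676), and no best region of either list lay within 500 bp. The highest candidate of list A anywhere in this window had rank 3660, so list A alone gave Eip93F no best region. The Eip93F peak was thus among the best regions of list B only, while its pooled signal lay above the threshold.

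The start site peaks of these 2 regulators and the lower of the Eip78C intron peaks are shown so that promoter and intron can be read side by side.
Eip78C, summit upstream of Eip78C-RB, chr3L:21240012-21240132, plus strand: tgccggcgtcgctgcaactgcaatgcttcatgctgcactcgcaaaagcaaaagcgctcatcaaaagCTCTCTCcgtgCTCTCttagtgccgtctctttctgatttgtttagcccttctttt
Eip78C, intron peak at 21252790, chr3L:21252730-21252850, plus strand: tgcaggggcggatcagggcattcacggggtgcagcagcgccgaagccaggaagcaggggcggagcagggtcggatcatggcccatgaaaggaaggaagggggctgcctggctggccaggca
Eip93F, summit upstream of Eip93F-RA and Eip93F-RC, chr3R:21972157-21972277, plus strand: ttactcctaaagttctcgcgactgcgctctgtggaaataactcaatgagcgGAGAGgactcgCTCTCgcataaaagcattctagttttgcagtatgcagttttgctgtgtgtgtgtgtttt
Neither Eip78C intron peak had GAGAG or its complement within 100 bp of the summit, and that at 21252790 had a GC content of 64.7% within 100 bp, the highest of the 19 peaks, beside a median of 49.8% over all peaks. Both start site stretches held the short repeat GAGAG, 3 times for Eip78C and 2 times for Eip93F.

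E23 (FBgn0020445, minus strand, 2L, 3334875 to 3354829) encodes a membrane transporter whose 3 transcripts share 1 start site. Of 15 pooled candidates 1 was a peak, 6.67% (0.169 to 31.9%). The summit at 3354900 lay 71 bp upstream of the start site, with signal 497.1 (rank 98), in the top 3.61% of peaks. It had 316.3 in list A (rank 91) and 213.5 in list B (rank 105), so its ranks in the 3 lists lay close together. The 7 intron candidates of E23 reached a signal of 59.2 (rank 3793) and none passed. The nearest other peak was 51655 bp away.
E23, summit upstream of the start site, chr2L:3354840-3354960, plus strand: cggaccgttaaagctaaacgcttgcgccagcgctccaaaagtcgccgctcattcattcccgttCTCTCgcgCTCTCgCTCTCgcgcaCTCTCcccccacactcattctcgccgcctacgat
The stretch upstream of E23 held 4 copies of CTCTC, all within 60 bp of the summit, and no GAGAGAG or its complement. It is shown because it was the start site peak of highest signal among the 6 genes.

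Eip63E (FBgn0005640, plus strand, 3L, 3515751 to 3610521) encodes a cyclin-dependent kinase and spans 94.8 kb, with 14 transcripts and 3 clusters of start sites. Of 42 pooled candidates 3 were peaks, 7.14% (1.5 to 19.5%), all below the median signal of 119.5 over the 2718 peaks. The start site peak at 3543584 lay 4 bp from the start of 5 transcripts, Eip63E-RA among them, with signal 82.3 (rank 2290). List A had it at 73.1 (rank 1377), and list B had no region over the summit, its nearest candidate summit being 405 bp away. An intron peak 835 bp upstream, at 3542749, had signal 95.8 (rank 1843) and showed the opposite, with 28.3 in list A (rank 8662) and 59.3 in list B (rank 1316). The other peak, at 3513615, was between genes, 2136 bp upstream of the first Eip63E start site and 934 bp from that of ImpE2, an ecdysone-inducible gene on the other strand. Its signal of 74.9 (rank 2632) was the lowest of the 19, with 19.2 in list A (rank 20938) and 48.8 in list B (rank 1761). None of the 3 peaks was among the best regions of both lists.

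At the most upstream Eip63E start site the highest pooled signal was 32.7 (rank 11777), and at the third cluster, that of Eip63E-RC, 43.6 (rank 6475). A further intron region at 3537166 was among the best of list A, with signal 54.8 (rank 2186), and had a pooled signal of 69.4 (rank 2941), which did not pass.

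Eip71CD (FBgn0000565, plus strand, 3L, 15511052 to 15513202) is the shortest of the 6 genes, at 2.15 kb, and encodes an enzyme that reduces oxidised methionine. Of 9 pooled candidates 4 were peaks, 44.4% (13.7 to 78.8%), and all 4 were among the best regions of both lists. The peak at 15510966 lay 86 bp from the start of 4 transcripts (MsrA-RA among them), with signal 242.8 (rank 438), 152.2 in list A (rank 394) and 103.2 in list B (rank 517). The peak at 15511877 lay 12 bp from the start of MsrA-RE or MsrA-RF, with signal 153.9 (rank 936), 59.3 in list A (rank 1944) and 94.7 in list B (rank 610). Both start site clusters of this gene thus held a peak, which was so for none of the other genes with more than 1 cluster.

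The other 2 peaks in the Eip71CD window lay outside the gene body. That at 15507692 lay in an intron of the upstream neighbour CG7841, 560 bp from the start of that gene, with signal 213.6 (rank 545), 125.4 in list A (rank 550) and 72.4 in list B (rank 966). That at 15514551 lay between genes, 2662 bp from the nearest Eip71CD start site and 2505 bp from that of CG13454. With 516.0 (rank 93) it had the highest signal of the 19 peaks, with 355.7 in list A (rank 71) and 185.7 in list B (rank 146). The start site peak at 15510966 also lay in the last exon of gdl, the gene that ends just before Eip71CD starts, so these data do not assign it to either gene.

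Sequence is shown for the strongest peak, for the CG7841 intron with its GA run of 19 bp, and for the bases just upstream of the downstream Eip71CD start site and of Eip63E-RA, whose exons are left out.
Eip71CD, intergenic peak downstream, chr3L:15514491-15514611, plus strand: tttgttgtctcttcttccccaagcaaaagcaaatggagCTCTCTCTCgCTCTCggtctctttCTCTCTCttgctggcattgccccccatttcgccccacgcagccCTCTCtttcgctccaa
Eip71CD, peak in the CG7841 intron, chr3L:15507632-15507752, plus strand: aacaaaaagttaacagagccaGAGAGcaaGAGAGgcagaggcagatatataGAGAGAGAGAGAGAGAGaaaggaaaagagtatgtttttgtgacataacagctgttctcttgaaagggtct
Eip71CD, upstream of the downstream start site, chr3L:15511817-15511888, plus strand: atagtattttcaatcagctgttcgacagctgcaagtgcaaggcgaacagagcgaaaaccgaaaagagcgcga
Eip63E, upstream of Eip63E-RA, chr3L:3543524-3543579, plus strand: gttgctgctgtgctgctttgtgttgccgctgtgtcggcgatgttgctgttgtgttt
The peak of highest signal and the CG7841 intron peak held 3 and 6 occurrences of GAGAGAG within 100 bp, counted in the full 201 bp around each summit. Of the peaks whose exons are left out, that at 15511877 held 3 occurrences of GAGAGAG and 5 of GAGAG in that window, and that at 3543584 held none of GAGAGAG and 2 of GAGAG. Neither lies whole within the bases printed, so those lines carry no capitals.

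Over all 6 genes, 28 pooled candidates lay within 500 bp of a start site of some gene and 7 were peaks, 25.0% (10.7 to 44.9%), beside 20.3% of all such candidates on the arms. In introns of some gene 10 of 107 were peaks, 9.35% (4.57 to 16.5%), beside 5.97% of all intron candidates. The 10 include the peak in the CG7841 intron, outside the 6 genes, and without flanks 9 of 101 intron candidates were peaks. Both intervals include the share over all candidates, so neither class stood apart in these counts. Around the 6 genes the share was higher at start sites than in introns, with overlapping intervals, while introns held more candidates and more peaks. In list A, 22.2% of start site candidates (beside 20.0% on the arms) and 10.2% of intron candidates (beside 6.06%) were best regions. In list B the shares were 28.1% (beside 17.2%) and 10.1% (beside 7.01%). The median signal was 135.7 over the 7 start site peaks and 122.9 over the 10 intron peaks, beside 126.9 and 113.6 over all start site and intron peaks.

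**Figure D2:**
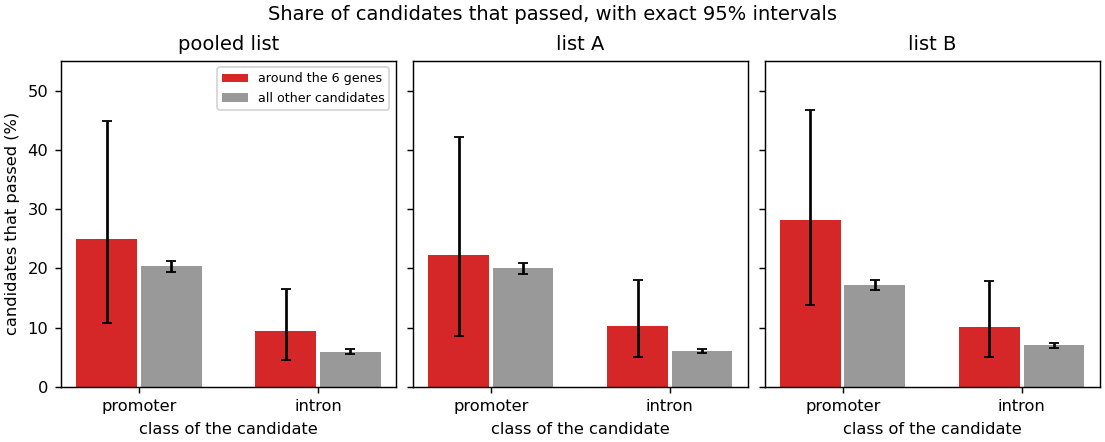
Percent of candidates that were peaks (pooled list) or best regions (lists A and B), at start sites and in introns, around the 6 genes (red) and elsewhere on the arms (grey), with exact 95% intervals as bars. Around the 6 genes start sites stood at 25.0% and introns at 9.35% in the pooled list, and each red interval spans the grey value.

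The 6 genes had 16 start site clusters, 14 of which had a pooled candidate within 500 bp and 7 of which had a peak, 43.8% beside 8.27% of 17177 clusters over all protein-coding genes. Only 2106 of the 13968 protein-coding genes had 2 or more clusters, and the 8.27% was not matched for gene length or number of clusters. In br, Eip78C, Eip93F and Eip63E the peak was at an internal cluster and the most upstream cluster had none, a pattern singled out after its values were seen. These 4 genes have start sites spread over more than 10 kb. Among 264 protein-coding genes with such a spread and a peak at a start site, 62.1% also had none at the most upstream cluster, so the arrangement was the usual one for genes of this layout. Of all 537 genes with such a spread, 49.2% had a peak at some start site.

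**Figure D3:**
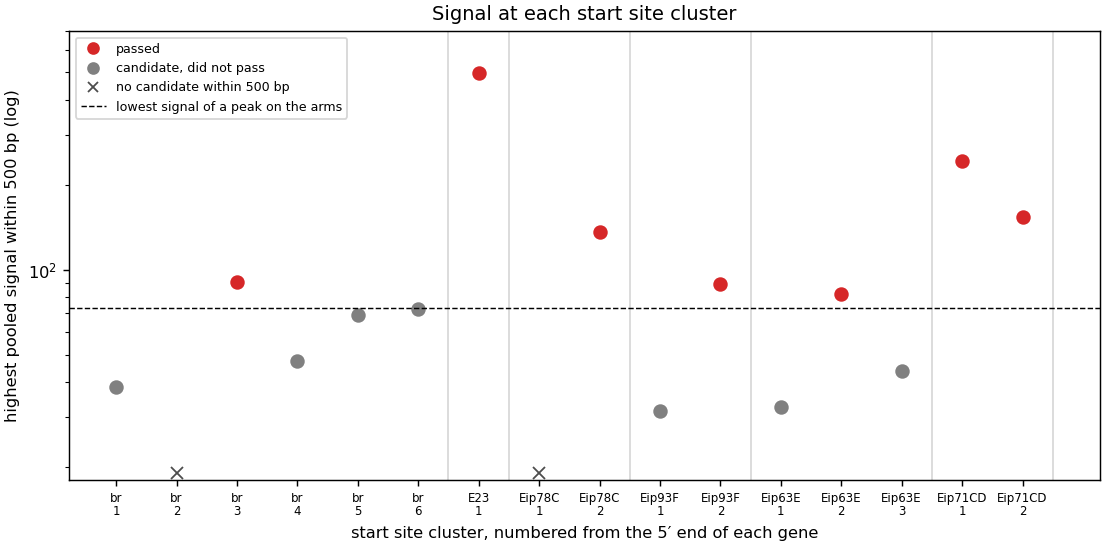
Highest pooled signal (log axis, the authors' score) within 500 bp of each of the 16 start site clusters, numbered from the 5′ end of each gene, with peaks in red, candidates that did not pass in grey and a cross where no candidate lay within 500 bp. In br, Eip78C, Eip93F and Eip63E the red point is an internal cluster, and the sixth br cluster lies just under the dashed line of the lowest peak signal.

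The nearest start site belonged to the gene itself for all 7 start site peaks, for 4 of the 10 intron peaks and for neither of the 2 intergenic ones. Peaks also lay close to each other. Of the 19, 10 had another peak within 1 kb, beside 30.3% of all peaks, and of the 10 intron peaks 7 did, beside 35.5%. The pairs were 439 and 565 bp apart in br, 636 bp in Eip78C, 835 bp in Eip63E and 911 bp in Eip71CD. The peaks of such a pair come from the same stretch of chromatin and are not independent of each other.

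Of the 19 peaks, 12 lay in best regions of both lists, beside 58.3% of all peaks on the arms, a share near that of all peaks. The support differed by gene, with 4 of 4 for Eip71CD, 1 of 1 for E23, 5 of 7 for br, 2 of 3 for Eip78C, 0 of 1 for Eip93F and 0 of 3 for Eip63E. List A held 14 of the 19 among its best regions and list B held 16. With any rank allowed, 18 of the 19 lay in candidates of both lists, beside 92.2% of all peaks, the exception being the start site peak of Eip63E. The rank was better in list A for 8 of the 19 peaks, beside 52.3% of all peaks, and for 4 of the 10 intron peaks, beside 44.6% of all intron peaks.

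**Figure D4:**
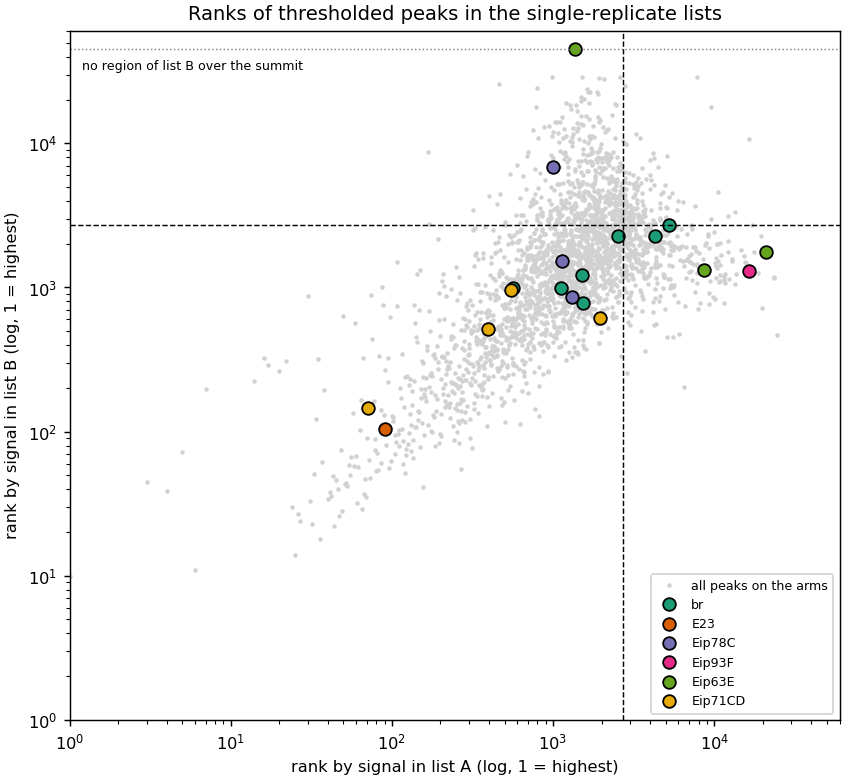
Rank by signal in list A (log axis) against rank in list B (log axis) for the 19 peaks, coloured by gene, over all peaks on the arms in grey, with dashed lines at rank 2718 and a dotted line for a peak without a region in list B. E23 and the downstream Eip71CD peak sit at ranks 71 to 146 in both lists, whereas Eip93F and the Eip63E peaks lie outside the best regions of at least 1 list.

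Around the summits, GAGAGAG or its complement occurred within 100 bp in 11 of the 19 peaks (57.9%), beside 43.9% of all 2690. By class it occurred in 3 of 7 start site peaks beside 44.3%, and in 7 of 10 intron peaks beside 46.5%. By gene it was uneven, with 6 of 7 peaks for br and 3 of 4 for Eip71CD. Eip78C and Eip63E had it in 1 of 3 peaks each, and the single peaks of E23 and Eip93F lacked it. The shorter GAGAG, which every GAGAGAG contains, occurred in 16 of 19 (84.2%) beside 76.3%, and in all 7 start site peaks beside 78.3%. For dl itself a single strict pattern was searched without mismatches: GGG, a short run of A or T, CC, then A or C. It had no match in any of the 19 windows of 201 bp, where 1.52% of all peaks had one, so looser dl sites were not assessed. AGGTCA, the hexamer recognised by EcR and many other nuclear receptors, had a match in 2 of the 19, at br-RC and at the br intron peak 1619268, beside 2.68% of all peaks. The inverted repeat of AGGTCA with 1 base between had no match in the 19 nor in any of the 2690. TATCGATA and CAGGTAG had none in the 19, beside 0.781% and 1.71% of all peaks. All motifs were searched on both strands, and a match describes the letters only.

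Among 24 other genes of ecdysone signalling, 15 (62.5%) had a peak at a start site, beside 8.81% of protein-coding genes, and 18 (75.0%) within 5 kb, beside 23.1%. Many of them are long, and among genes with windows of similar length the share with a start site peak ranged from 2.94 to 42.4% over the 24, with a mean of 22.6%. The share with a peak within 5 kb ranged from 16.1 to 58.8%, with a mean of 38.6%. The 18 genes with a peak within 5 kb include ImpE2, whose 1 peak, at 3513615, is also counted in the Eip63E window. The highest start site signals were 586.5 at Eip74EF, an ETS transcription factor of the early set, 432.4 at EcR, 391.0 at tai, a coactivator of the receptor, and 278.2 at Hr3, a nuclear receptor. Of the 6 genes described here, E23 at 497.1 fell between Eip74EF and EcR, and the other 5 were below Hr3. Some genes of the pathway had no start site peak, among them usp, the partner of EcR, the nuclear receptors Hr39 and Hr78, and Cyp18a1, an enzyme that inactivates ecdysone. Hr39 had 2 peaks elsewhere in its window and a best region of list A, though not of list B, at a start site, usp had 1 candidate and no peak, and Hr78 and Cyp18a1 had no candidate. Of 11 late genes of the 71E cluster, which are induced after the early genes, 0 had a peak within 5 kb, but they are neighbours whose windows overlap and so count as about 1 region. The windows of those 11 each held between 3 and 6 pooled candidates, so the region was not empty of candidates.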

How the data were processed

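Transgenic larvae were profiled by ChIP-seq, and the deposited files were region lists, used here in dm6. Per the deposited description files, candidates were called on each ChIP alignment and on the pooled alignments against a control, and an optimal set was thresholded by IDR. Which aligner and caller were used, in which version, and at which IDR cutoff is not given in the sources used here. A signal value, the authors' enrichment score, and a −log10 q-value are deposited for every region, and regions were ranked by signal. Coordinates are 1-based, with the summit at the start plus the deposited offset.

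The annotation was Ensembl release 115 (BDGP 6.54), from which pseudogenes and transposable elements were dropped. Eip71CD and 13 listed genes were matched through RefSeq synonyms, the 71E genes after their spelling was set to Eig71E. Summits within 500 bp of a start site were classed there first, then as UTR, as other exon, as intron, or as intergenic. A peak was held by a list when its summit lay inside a region of that list. Python 3.11.15, pandas 2.3.3, numpy 2.4.6 and scipy 1.17.1 were used, and the counting was tested on simulated regions. The members, gene lists, motifs and comparisons were chosen with earlier results of these data known, and no test was run. Genes named are the 6 members with every peak, the owners of the nearest start sites, and of the 24 other ecdysone genes the 4 of highest start site signal and the first 4 in list order without one. Neighbours overlapping a peak were added after the values were seen. Alternatives were other windows and flanks, a threshold at the median signal, each single list, other overlap rules and other motif windows. The dm3 lists were not used.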

Additional observations from a re-analysis of the deposited data

How the results depend on the processing

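Of 35 alternative settings, 32 left the counts and shares within 1.5 times or within their intervals. At or above the median signal, 10 of the 19 peaks and 3 of the 6 genes with a start site peak remained, and 11 peaks had the gene itself as owner of the nearest start site. At the median threshold the share that passed fell from 25.0% to 14.3% at start sites and from 9.35% to 4.67% in introns. Both falls exceeded 1.5 times but stayed within the wide intervals. Flanks of 0, 1 and 10 kb gave 14, 16 and 20 peaks, list A alone 17 and list B alone 21. A start site window of 250 bp left 4 genes and one of 1000 bp all 6. The shorter GAGAG, added after the data were seen, raised 11 peaks with GAGAGAG to 16. No paired analysis was possible because there was 1 group and no test. The 2 lists cannot be tied to replicates, read depth is unknown, and the intervals cover the counting of regions only.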
